A study of Mus musculus with 10 samples.

Results

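The genes described here are 10 integrin subunits, receptors for the extracellular matrix, taken as all probe sets that the platform annotation assigns to Itga3, Itga4, Itga5, Itga6, Itga8, Itga9, Itgav, Itgb1, Itgb3 and Itgb5. They are 10 of 12393 named genes and 28 of 22626 probe sets on the array. Expression was measured on 10 Affymetrix arrays, 1 per sample, from microdissected hindbrain with pharyngeal arches 1 to 4 of E10.5 mouse embryos. The 5 wildtype samples (replicates 1 to 5) and the 5 Fbln1-null samples (replicates 3, 4, 5, 7 and 8), homozygous for an Fbln1 gene trap insertion, came from matings of heterozygous carriers, and the labels name no strain background, litter or Cre. The tissue is a mixture of neural tube, mesenchyme, epithelium and vessels, so fewer cells of a type and less RNA per cell cannot be told apart. The series asked how loss of fibulin-1 affects FGF8 signalling, and integrin expression is read here as a further comparison of the same 2 genotypes.

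Integrins are the cell surface receptors through which cells hold and sense the extracellular matrix. Each receptor is a pair of an alpha and a beta subunit, and the pair sets which matrix protein is bound, while the beta tail recruits talin, kindlin and the focal adhesion proteins that tie the receptor to actin. In the embryonic head, neural crest cells use them to move over fibronectin and laminin, and epithelia and neural tube use them to sit on a basement membrane. Fibulin-1 is itself a matrix protein that binds fibronectin and laminin, which are integrin ligands.

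Values are the deposited log2 expression values, in which dim probe sets are pulled to a floor near 2.26. Array medians were 3.20 to 3.29. On the brighter Fbln1 probe set the null arrays read 2.52 to 2.85 and the wildtype arrays 3.83 to 5.11, with no overlap (exact permutation, two-sided, p = 0.00794, which is the lowest value possible with 5 arrays in each genotype). Both Fbln1 probe sets were under the expression filter given below, so they are not among the probe sets tested over it. In the limma fit over all 22626 probe sets the brighter had an adjusted p of 0.0715. On wildtype replicate 4 Xist read 10.42 and the Y-linked Eif2s3y 2.70, and on the other 9 arrays Xist read 2.28 to 3.36 and Eif2s3y 8.96 to 9.85. Of the marker lists for the labelled tissue, 8 of 12 hindbrain genes and 5 of 12 arch mesenchyme genes were over the expression filter, a log2 value over 4 on at least 5 arrays. Sox1, Sox3, Olig2 and Hoxb2, and Dlx5, Hand2, Msx1, Msx2, Snai1, Barx1 and Alx4, were under it.

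Of the 10 integrin genes, 6 had at least 1 probe set over the filter (60.0%), against 47.7% of all named genes. These were Itga5, Itga6, Itga9, Itgav, Itgb1 and Itgb5. By probe set, 8 of 28 integrin probe sets were over the filter and 20 under it, against 9801 of all 22626 over it. The count by gene is easier to pass for a gene with more probe sets. Itga6, Itgav and Itgb1 had probe sets over log2 4 on all 10 arrays. Itga5, Itga9 and Itgb5 passed on 8, 5 and 6 arrays, with values on both sides of the filter in each genotype. Levels of different probe sets are not set against each other, because each probe set has its own sensitivity.

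**Figure D1:**
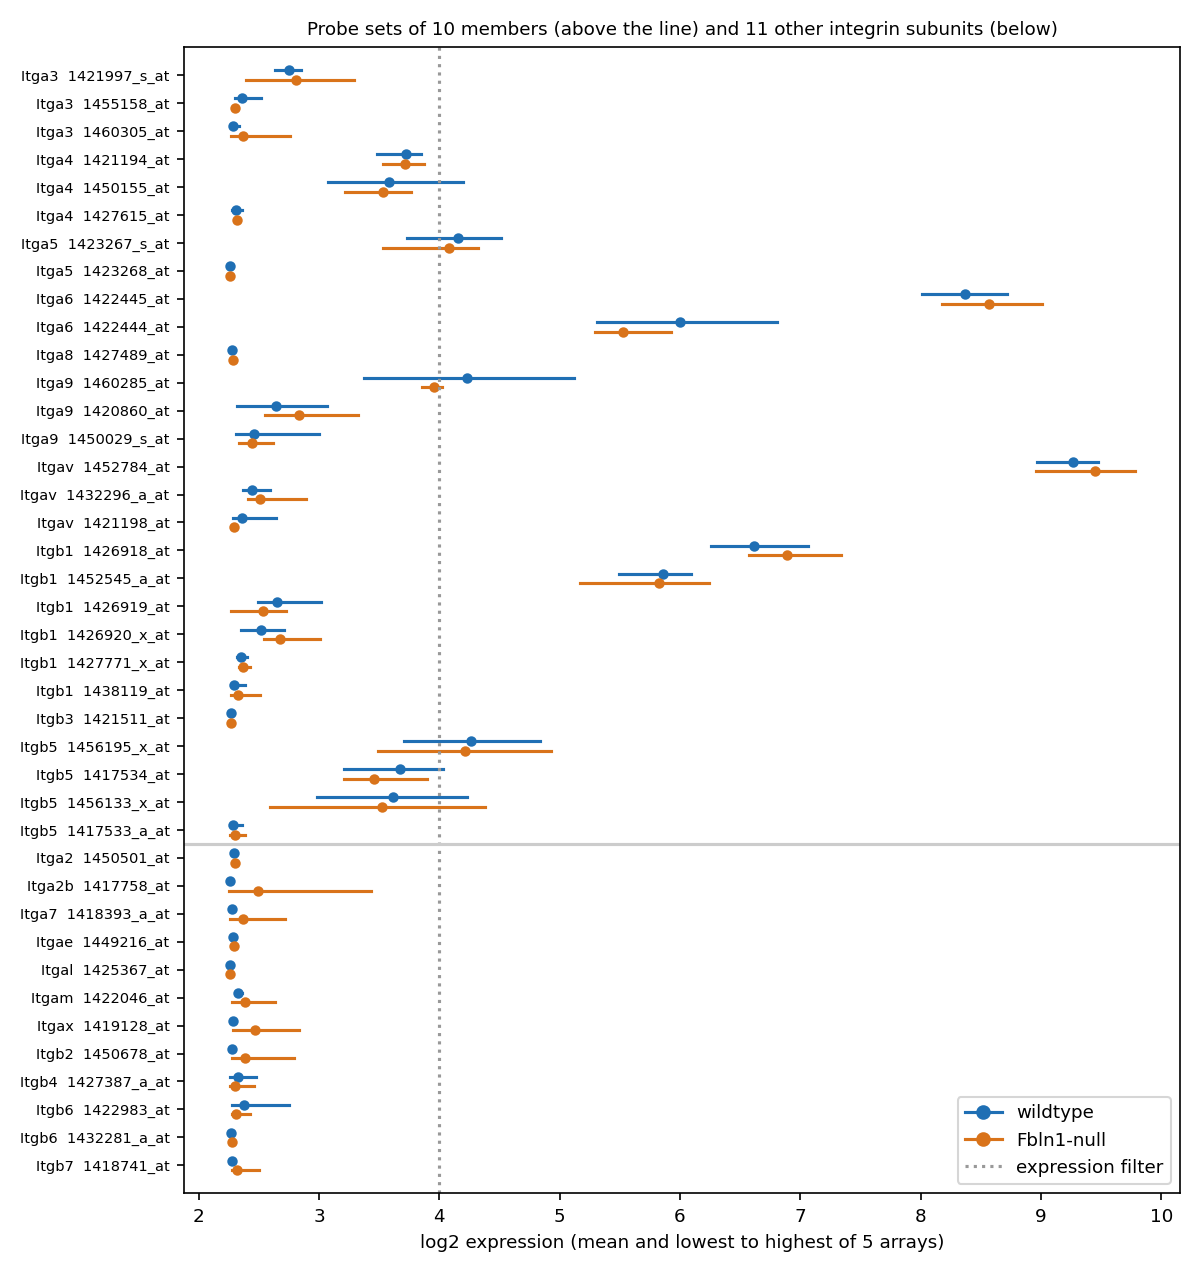
Mean (points) and lowest to highest value (bars) of 5 wildtype and 5 Fbln1-null arrays on the log2 scale, for each probe set of the 10 members and of 11 other integrin subunits, with the filter at log2 4 dotted. Itga6, Itgav and Itgb1 lie to the right of the filter on their brighter probe sets, and none of the 11 other subunits reaches it.

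No integrin probe set passed the test between the genotypes. Among the 8 probe sets over the filter, 0 had a limma adjusted p under 0.05, against 0.0204% of all 9801 probe sets tested, and 0 had an unadjusted limma p under 0.05, against 12.4% of all. The 2 genotypes overlapped on each of the 8, while 2.77% of all probe sets had no overlap. Of the 8, 3 had a higher and 5 a lower mean in null tissue. Their median log2 fold change was -0.043, beside -0.037 for all probe sets tested. Taken without sign, the median change was 0.19 in the family and 0.15 over all. The adjusted limma p ran from 0.499 to 0.972, and the exact permutation p from 0.127 to 0.881.

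**Figure D2:**
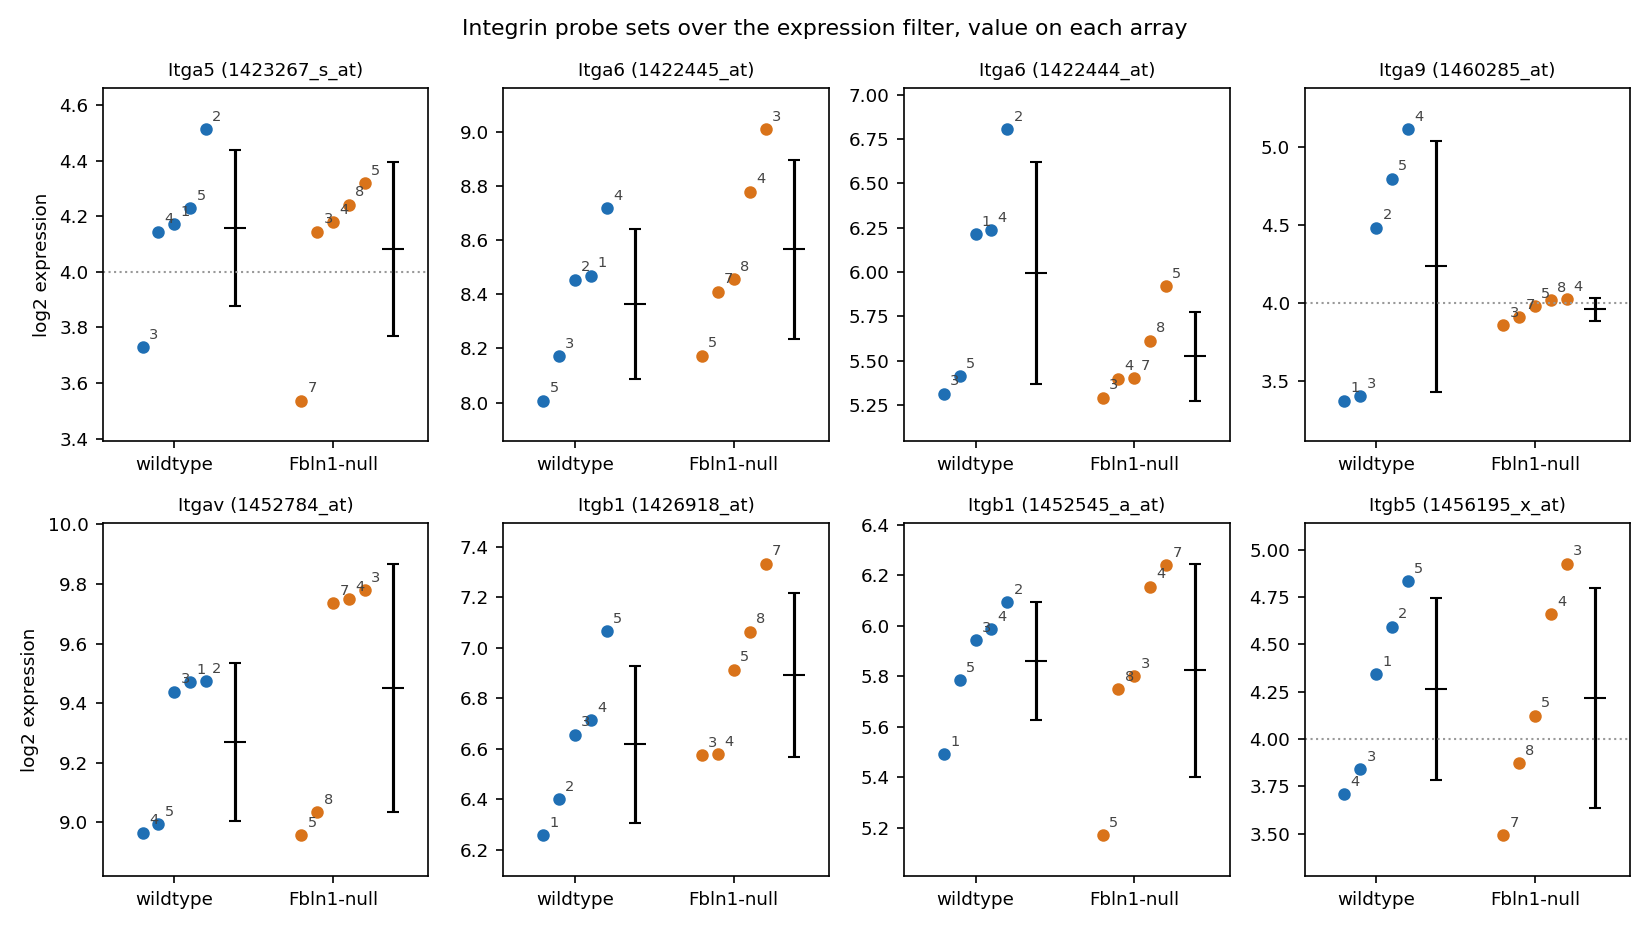
Log2 expression on each array for the 8 integrin probe sets over the filter, with the replicate number beside each point and the mean ± SD of 5 arrays in black (the dotted line marks log2 4, drawn where values come near it). In each panel the wildtype and Fbln1-null arrays overlap, and the range of the wildtype arrays is wider than the gap between the means.

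The limma intervals are for each probe set alone, without adjustment for the number of probe sets tested. They do not give the size of change that would have passed the adjusted test. The spread of arrays within a genotype was 0.298 to 0.573 (SD) for these probe sets, with a median of 0.346 against 0.272 for all probe sets tested. Over the 8 probe sets the 95% limma intervals of the log2 fold change ended at -1.03 on the low side, for the dimmer Itga6 probe set, and at 0.68 on the high side, for the brighter Itgb1 probe set. A change of 1 log2 unit thus lay outside the interval of each probe set but that one, on a scale that understates changes of dim probe sets.

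**Figure D3:**
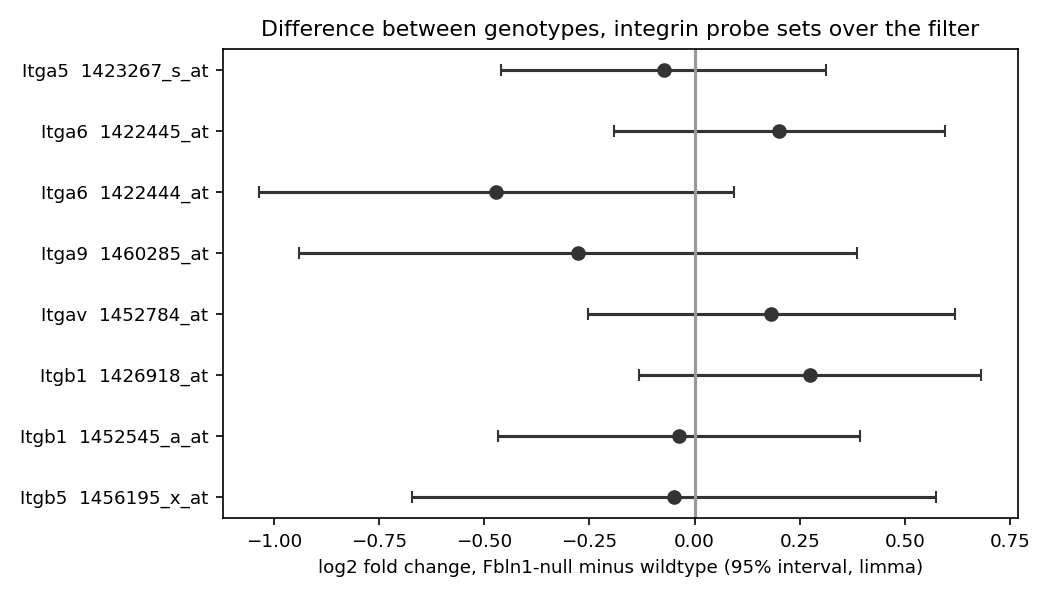
Log2 fold change (Fbln1-null minus wildtype) with its 95% interval from limma for the 8 integrin probe sets over the filter. Each interval includes 0, from -1.03 to 0.09 for Itga6 1422444_at to -0.13 to 0.68 for Itgb1 1426918_at.

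The laminin receptors among the members are Itga6 and Itga3. Itga6 encodes the alpha subunit of laminin receptors on epithelia and neural progenitors, and it was read on a pair of probe sets over the filter. On the brighter, 1422445_at, wildtype replicates 1 to 5 read 8.47, 8.45, 8.17, 8.72 and 8.01, and null replicates 3, 4, 5, 7 and 8 read 9.01, 8.78, 8.17, 8.41 and 8.45. Null replicates 3 and 4 were above all wildtype arrays and the other nulls fell inside the wildtype range. Wildtype averaged 8.36 ± 0.28 (SD, n = 5) and null 8.57 ± 0.33 (SD, n = 5). The log2 fold change was 0.20 (SE 0.18; adjusted p = 0.704 by limma).

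On the dimmer Itga6 probe set, 1422444_at, the null mean was the lower one. Wildtype replicates 1 to 5 read 6.21, 6.81, 5.31, 6.24 and 5.41, and the null arrays in the same order as above read 5.29, 5.40, 5.92, 5.40 and 5.61. Wildtype replicates 1, 2 and 4 were higher than every null array, and wildtype replicates 3 and 5 lay among them. Wildtype averaged 5.997 ± 0.63 (SD, n = 5) and null 5.53 ± 0.25 (SD, n = 5), and the log2 fold change was -0.47 (SE 0.26; adjusted p = 0.499 by limma). This was the smallest p of the family. Its size rested on single wildtype arrays. Leaving out wildtype replicate 2 gave -0.27 and leaving out replicate 3 gave -0.64, where the unadjusted limma p was 0.0226 and the adjusted p 0.303.

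Both Itga6 probe sets carry the same source sequence in the platform annotation, and their difference could be taken within each array, a test added after the values were seen. The brighter minus the dimmer averaged 2.37 ± 0.46 (SD, n = 5) in wildtype arrays and 3.04 ± 0.56 (SD, n = 5) in null arrays. Null replicates 3, 4 and 7, at 3.72, 3.38 and 3.01, were above the wildtype range of 1.65 to 2.86, and the other 2 nulls were within it. The shift of 0.67 did not pass (exact permutation p = 0.0873, 0.175 after Benjamini-Hochberg adjustment over the 2 genes with such a pair).

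**Figure D4:**
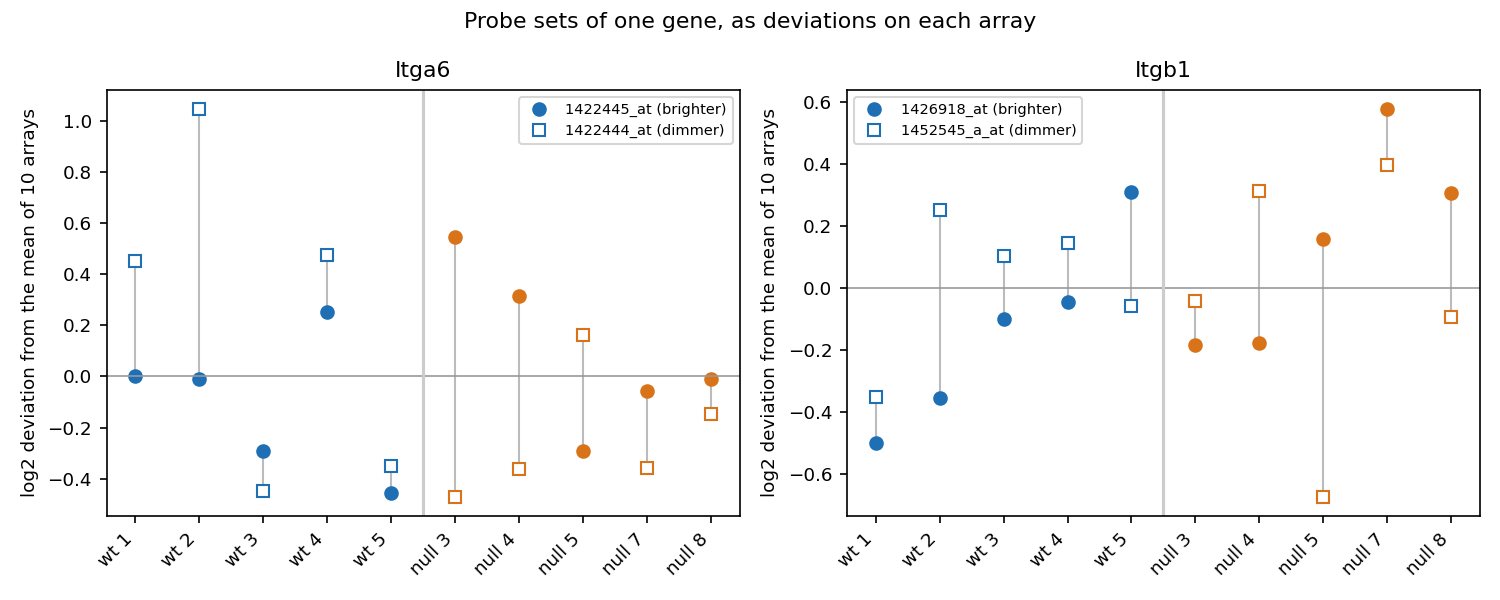
Deviation of each array from the mean of the 10 arrays (log2) on the brighter (filled circles) and dimmer (open squares) probe set of Itga6, left, and of Itgb1, right, with wildtype in blue, Fbln1-null in orange and a grey line joining the pair of one array. The Itga6 pair separates in opposite directions in wildtype replicate 2 and null replicates 3 and 4, and the Itgb1 pair separates most in null replicate 5.

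Itga3, an alpha subunit of laminin receptors in epithelia, was under the filter on its 3 probe sets. The brightest of them, 1421997_s_at, spanned 2.39 to 3.29 over the 10 arrays, with means of 2.75 in wildtype and 2.81 in null tissue. The other Itga3 probe sets read 2.30 to 2.52 and 2.27 to 2.76.

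The receptors for fibronectin, vitronectin and other RGD-bearing ligands include Itgav, Itga5 and Itga8. Itgav, the alpha subunit shared by several vitronectin and latent TGF-beta receptors, was bright on 1452784_at. Wildtype replicates 1 to 5 read 9.47, 9.47, 9.44, 8.96 and 8.99, and null replicates 3, 4, 5, 7 and 8 read 9.78, 9.75, 8.96, 9.74 and 9.03. Both genotypes were split in the same way, with wildtype replicates 4 and 5 and null replicates 5 and 8 at 8.96 to 9.03 and the rest at 9.44 to 9.78. The 3 high nulls were above the highest wildtype array and the 2 low nulls were level with the low wildtypes. Averages were 9.27 ± 0.26 (SD, n = 5) for wildtype and 9.45 ± 0.42 (SD, n = 5) for null, and the log2 fold change was 0.18 (SE 0.20; adjusted p = 0.768 by limma). The other Itgav probe sets read 2.29 to 2.64 and 2.37 to 2.90.

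Itga5, the alpha subunit of the classical fibronectin receptor, lay at the filter on 1423267_s_at, a probe set that can match several genes. Wildtype arrays read 4.17, 4.51, 3.73, 4.14 and 4.23, and null arrays 4.14, 4.18, 4.32, 3.54 and 4.24. Of the nulls, 4 lay between 4.14 and 4.32 and replicate 7 lay below every other array. Averages were 4.16 ± 0.28 (SD, n = 5) for wildtype and 4.08 ± 0.31 (SD, n = 5) for null. The log2 fold change was -0.07 (SE 0.18; adjusted p = 0.904 by limma), and it was 0.063 without null replicate 7. The other Itga5 probe set was flat at 2.26 on all 10 arrays, and so was the single probe set of Itga8, a receptor subunit for nephronectin in developing mesenchyme, at 2.28. These readings give no fold.

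Itga4 and Itga9 are closely related alpha subunits that bind VCAM1, fibronectin splice forms or tenascin-C, and Itga4 is known from migrating neural crest. The 3 Itga4 probe sets were under the filter. On the brightest, 1421194_at, wildtype arrays read 3.49, 3.84, 3.60, 3.83 and 3.85 and null arrays 3.75, 3.87, 3.72, 3.53 and 3.72. The genotypes covered the same interval and their means were 3.72 in each, with a 95% interval for the log2 fold change of -0.20 to 0.20, on a scale that is compressed near the floor. The second probe set, 1450155_at, spanned 3.08 to 4.20 and exceeded log2 4 only in wildtype replicate 4, and the third read 2.28 to 2.36.

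Itga9 differed more within wildtype tissue than between genotypes. On 1460285_at wildtype replicates 1 to 5 read 3.37, 4.48, 3.40, 5.12 and 4.80, and the null arrays read 3.86, 4.02, 3.98, 3.91 and 4.02. The 5 null arrays were tightly grouped, and wildtype arrays stood on both sides of them, 2 below and 3 above. The SD was 0.81 in wildtype and 0.07 in null tissue. The means were 4.23 and 3.96, and the log2 fold change was -0.28 (SE 0.31; adjusted p = 0.769 by limma). Leaving out wildtype replicate 4 gave -0.05 and leaving out replicate 1 gave -0.49. With values under log2 4 raised to 4 it was -0.47 (SE 0.20), with an unadjusted limma p of 0.0346 and an adjusted p of 0.360. That floor removed the 2 low wildtype readings, 3.37 and 3.40, and moved the null arrays little, so it also removed the wildtype arrays below the nulls. The other Itga9 probe sets, under the filter, read 2.32 to 3.33 and 2.31 to 2.999, with log2 fold changes of 0.19 (SE 0.17) and -0.02 (SE 0.14).

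Itgb1, the beta subunit shared by most of these alpha chains, had 6 probe sets, of which 2 were over the filter. On 1426918_at wildtype replicates 1 to 5 read 6.26, 6.40, 6.66, 6.71 and 7.07, and null replicates 3, 4, 5, 7 and 8 read 6.57, 6.58, 6.91, 7.33 and 7.06. Of the null arrays, 4 lay within the wildtype range and replicate 7 was above it. Wildtype averaged 6.62 ± 0.31 (SD, n = 5) and null 6.89 ± 0.33 (SD, n = 5). The log2 fold change was 0.27 (SE 0.19; adjusted p = 0.590 by limma), the largest positive value of the family.

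The second Itgb1 probe set over the filter was 1452545_a_at. Wildtype arrays read 5.49, 6.09, 5.94, 5.99 and 5.78 and null arrays 5.80, 6.16, 5.17, 6.24 and 5.75. Null replicate 5 was the lowest and null replicate 7 the highest of all 10. The log2 fold change was -0.04 (SE 0.20; adjusted p = 0.966 by limma), and it was 0.13 without null replicate 5. On that array the actin control probe sets had their largest log2 difference between the ends of the transcript, 2.85 against 1.9997 to 2.38 in wildtype arrays, and with this difference as a covariate the log2 fold change was 0.19. The brighter minus the dimmer Itgb1 probe set averaged 0.76 ± 0.35 (SD, n = 5) in wildtype arrays and 1.07 ± 0.51 (SD, n = 5) in null arrays (exact permutation p = 0.262, and 0.262 after adjustment over the 2 genes). The remaining 4 Itgb1 probe sets read between 2.27 and 3.02.

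Itgb5 and Itgb3 encode beta subunits that pair with the Itgav product. Itgb5 was near the filter on 1456195_x_at, a probe set that can match several genes. There wildtype arrays read 4.34, 4.59, 3.84, 3.71 and 4.83 and null arrays 4.93, 4.66, 4.12, 3.49 and 3.87. Both groups spanned more than a log2 unit and lay over each other. The log2 fold change was -0.05 (SE 0.29; adjusted p = 0.972 by limma), and its sign changed with the scaling of the arrays and with the array left out. The next Itgb5 probe sets, with wildtype means of 3.67 and 3.62, had -0.22 (SE 0.19) and -0.09 (SE 0.35), and the fourth read 2.26 to 2.39. Itgb3, a beta subunit of receptors on platelets and osteoclasts, read 2.27 on all 10 arrays. Among the 20 member probe sets under the filter, fitted with all 22626, 0 had an unadjusted limma p under 0.05, and the smallest was 0.141.

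Over the 10 arrays no correlation of Itgb1 with an alpha partner passed. With the brightest probe sets, Pearson's r with Itgb1 was -0.39 for Itga6 (permutation p = 0.268, Spearman's rho -0.53, permutation p = 0.126). For Itga5 it was -0.44 (permutation p = 0.201, rho -0.16, permutation p = 0.657) and for Itga9 0.22 (permutation p = 0.535, rho 0.31, permutation p = 0.386). For Itgav, whose arrays fell into a high and a low level, it was -0.28 (permutation p = 0.421, rho -0.41, permutation p = 0.249). After Benjamini-Hochberg adjustment over these 4 relations the permutation p was 0.535 for each r and 0.498 to 0.657 for rho. Without wildtype replicate 1 and null replicate 7, the arrays farthest from the Itgb1 median, r was -0.55 for Itga6, -0.76 for Itgav, -0.02 for Itga5 and 0.14 for Itga9. As deviations from the genotype means r was -0.64, -0.47, -0.43 and 0.39 in that order.

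Of 16 further integrin subunits listed, 11 had probe sets named here, and 0 had one over the filter. The highest mean among them was 2.38, and the highest single reading was 3.44, for Itga2b in null replicate 7. They include the leukocyte subunits Itgal, Itgam, Itgax and Itgb2, the platelet subunit Itga2b and the epithelial subunits Itgb4 and Itgb6, with which the Itga6 and Itgav products can also pair. Of 9 leukocyte marker genes 1, Coro1a, was over the filter, with Ptprc, Csf1r and Tyrobp under it.

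Matrix ligands of integrins were mostly measurable, with 21 of 28 genes on the array over the filter (75.0%), against 47.7% of all named genes. The 28 genes had 52 probe sets, and a gene with more probe sets passes more easily. Of these 21, 11 had a higher and 10 a lower mean in null tissue, with a median log2 fold change of 0.0054 against -0.038 for all genes. By limma 0 passed an adjusted p of 0.05 (0.0338% of all 5912 genes did). With an unadjusted limma p under 0.05 there were 1 higher and 2 lower, 14.3% of the list against 12.8% of all genes (3.84% higher and 9.00% lower). Ccn1, a matricellular ligand of Itgav and Itga6 receptors, had -0.63 on the log2 scale (SE 0.24; adjusted p = 0.332 by limma) on a probe set that can match several genes, with wildtype arrays at 7.03 to 8.14 and null arrays at 6.15 to 7.19. Lama1, a laminin chain of early basement membranes, had -0.49 (SE 0.22; adjusted p = 0.390 by limma), from 4.46 to 5.01 in wildtype and 3.61 to 4.58 in null tissue, where replicates 5 and 7 were the low ones.

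Npnt, the epithelial basement membrane protein nephronectin and main ligand of the Itga8 receptor, had 0.39 on the log2 scale (SE 0.15; adjusted p = 0.334 by limma). Its wildtype arrays read 5.13, 5.50, 4.85, 4.85 and 4.82 and its null arrays 5.60, 5.44, 5.50, 5.42 and 5.17, so the genotypes overlapped through wildtype replicate 2. The dimmer Npnt probe set had -0.03 (SE 0.12). Among 9 epithelial marker genes, 8 passed the filter, and 2 of them, Trp63 and Esrp1, had an unadjusted limma p under 0.05, both higher in null tissue, where 3.84% of all genes were called higher. Of the 8, 6 had a higher and 2, Cdh1 at -0.08 and Epcam at -0.03, a lower mean, with a median log2 fold change of 0.045. The log2 of the summed epithelial signal was 9.64 to 10.27 in wildtype and 10.03 to 10.48 in null arrays (exact permutation p = 0.0952), Cldn4 was at the floor, and the part of this in the Npnt value was not tested.

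Vcam1, a ligand of the Itga4 and Itga9 receptors, had 0.41 (SE 0.25), and Lamc1, the laminin gamma chain common to most laminins, had 0.29 (SE 0.19), with limma adjusted p of 0.545 and 0.573. The dimmer Vcam1 probe set had 0.13 (SE 0.21). Fn1, fibronectin itself, had 0.17, Tnc, tenascin-C, 0.33, Nid1, the laminin-binding nidogen, -0.12 and Vtn, vitronectin, -0.05. None of these had an unadjusted limma p under 0.05. The 7 ligand genes under the filter were Edil3, Emilin1, Lama3, Lama5, Lamb2, Tgfb1 and Thbs1.

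The cytoplasmic side was also mostly measurable, with 25 of 35 adhesion complex genes over the filter (71.4%), against 47.7% of all named genes. The 35 genes had 68 probe sets. Of the 25 genes, 10 had a higher and 15 a lower mean, with a median log2 fold change of -0.083 against -0.038 for all genes. By limma 0 passed an adjusted p of 0.05. With an unadjusted limma p under 0.05 there were 1 higher and 4 lower of 25 genes, 20% of the list. The share over all genes was 12.8% (3.84% higher and 9.00% lower). In the list 0 genes had genotypes that did not overlap, against 2.88% of all genes. The count of lower genes changed with single arrays. It was 1 without wildtype replicate 2 or null replicate 7, 2 without wildtype replicate 1 or null replicate 8, and 0 without wildtype replicates 1 and 2 together. Of the 8 hindbrain markers over the filter, 7 had a lower mean in null tissue and 1, Hoxb3 at 0.22, a higher one. Their median log2 fold change was -0.21, and the largest was that of Pax6, a neural progenitor factor, at -0.52 (SE 0.15, adjusted p = 0.222 by limma). Their summed signal on the log2 scale was 9.76 to 10.29 in wildtype and 9.55 to 10.27 in null arrays (exact permutation p = 0.286). Neuron markers went the other way, with 7 higher and 1 lower of 8 over the filter and a median of 0.11. Arch mesenchyme markers had 2 higher and 3 lower of 5, with a median of -0.00081. The part of these lists in the adhesion counts was not tested.

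Tes, the focal adhesion protein testin, was the 1 gene of this list on the higher side, at 0.55 (SE 0.17; adjusted p = 0.249 by limma). Its wildtype arrays read 7.18, 7.41, 7.93, 7.75 and 7.54 and its null arrays 8.09, 8.19, 7.84, 8.49 and 7.95. Only wildtype replicate 3 reached into the null range, above null replicate 5. The dimmer Tes probe set, near the filter, had -0.10 (SE 0.16).

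The lower genes were Arhgef7, Parva, Bcar1 and Enah. Arhgef7, the exchange factor beta-PIX for Rac and Cdc42, had -0.80 (SE 0.28; adjusted p = 0.302 by limma), with a null mean of 3.55 below the filter. It was -0.36 with values under log2 4 raised to 4 and -0.54 without wildtype replicates 1 and 2. Parva, the actin-binding parvin of the complex with integrin-linked kinase, had -0.57 (SE 0.23; adjusted p = 0.339 by limma). Its wildtype arrays read 6.16 to 6.77 and its null arrays 5.14 to 6.37, with replicates 7 and 8 lowest. Bcar1, the adaptor p130Cas, had -0.45 (SE 0.18) on its brighter probe set and 0.03 (SE 0.14) on its dimmer one. The Parva probe set and the brighter Bcar1 probe set can match several genes. Enah, an actin polymerisation factor, had -0.31 (SE 0.14) on its brightest probe set, but 0.47 (SE 0.18) on 1431162_a_at, where the unadjusted limma p was 0.0229 and the adjusted p 0.332. Without wildtype replicates 1 and 2 the values were -0.38 for Parva, -0.26 for Bcar1 and -0.21 for Enah.

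Of 5 further genes, chosen for their role after their values were seen, 0 had an unadjusted limma p under 0.05. Tln1, talin, had -0.28, Fermt2, kindlin-2, 0.01, Ilk, integrin-linked kinase, 0.28, Vcl, vinculin, -0.22 and Pxn, paxillin, -0.48. Among the 10 genes of the list under the filter were Zyx, Src and Tns1.

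**Figure D5:**
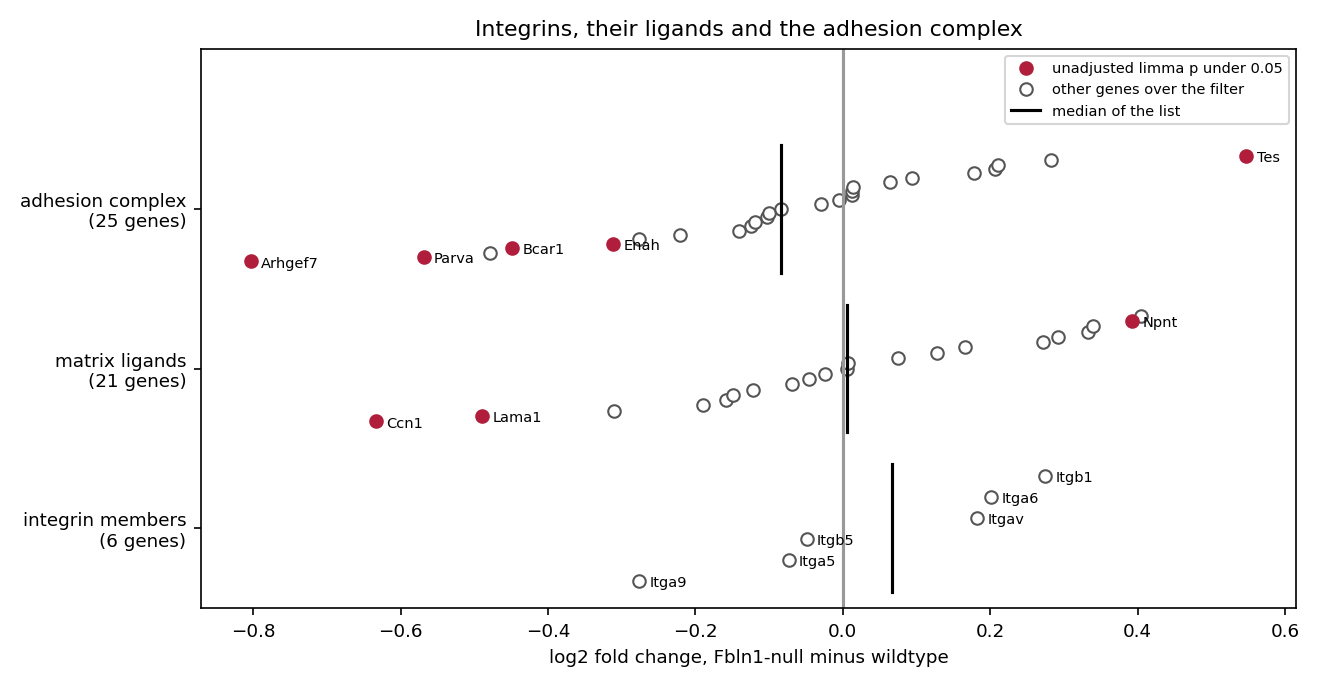
Log2 fold change (Fbln1-null minus wildtype) of the genes over the filter in 3 lists, 1 point per gene on its brightest probe set, with the list median as a black bar and filled red points for an unadjusted limma p under 0.05. The 6 integrin genes lie between -0.28 and 0.27 and have no red point, and the adhesion complex has 4 red points on the lower and 1 on the higher side.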

How the data were processed

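The deposited values are log2 expression, which the submitters' processing notes credit to GCRMA (its version is not given in the sources used here). The method corrects background from probe sequence, normalizes arrays and gives 1 value per probe set, which compresses changes near its floor. Intensities of single probes were not analysed. From 22690 probe sets, 64 controls were left out. Of the rest, 20380 had 1 gene symbol in the platform annotation, 691 several and 1555 none, and only single symbols were used as names (20351 had a gene ID in the RefSeq table of GRCm38.p6). Probe sets ending in _s_at or _x_at can match several genes.

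The 9801 probe sets with a log2 value over 4 on at least 5 arrays were fitted with limma 3.58.1 in R 4.3.3 (genotype alone, two-sided, Benjamini-Hochberg adjustment, threshold 0.05). Probe sets under the filter were read from the same fit over all 22626. A gene was represented by its brightest kept probe set (5912 genes). The labels name no litters, so p-values reflect only the spread among these samples, which may be technical. Single values were compared by exact permutation and correlations by 100000 permutations. Alternatives covered scaling, filter, floor, array weights, covariates, the replicate number as a block and arrays left out, with the same probe sets kept unless the filter was changed.

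Named list genes are the 5 with the smallest p in each list, and Fn1, Tnc, Nid1, Vtn, Tln1, Fermt2, Ilk, Vcl and Pxn were added by their role after their values were seen. The members and lists were chosen with earlier results of these data known.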

Additional observations from a re-analysis of the deposited data

Results flagged for a closer look

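In 56 groups of 5 arrays, made of the integrin probe sets that exceeded log2 3, the named list genes and Fbln1, 2 groups had an array far from the others by Dixon's test, where chance gives about 1 in 20. On the Itga5 probe set 1423267_s_at null replicate 7 read 3.54, against 4.14 to 4.32 in the other null arrays. On the dimmer Fbln1 probe set, 1422540_at, null replicate 7 read 2.88, against 2.26 to 2.40 in the other null arrays. Both values lie under log2 4.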

How the results depend on the processing

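The count of integrin probe sets past an adjusted limma p of 0.05 was 0 in all alternatives run. At an unadjusted p of 0.05 it was 0, but 1 with a floor at log2 4 (Itga9) and 1 with array weights (the dimmer Itga6 probe set, -0.67), and 0 to 1 with 1 array left out. Over all probe sets the adjusted count was 2, against 1 without a filter, 34 with a log2 6 filter or array weights, 0 with the replicate block, the sex covariate (which acts as leaving out wildtype replicate 4), the actin covariate or without wildtype replicates 1 and 2, and 0 to 7 with 1 array left out.

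Signs changed only for 4 probe sets. Itgb5 1456195_x_at went from -0.05 to 0.00027 with quantile normalization, 0.44 with the replicate block and 0.086 without wildtype replicates 1 and 2, and ran from -0.23 to 0.13 with 1 array left out. Itgb1 1452545_a_at had 0.023 with quantile normalization and 0.19 with the actin covariate (-0.14 to 0.13 with 1 array out). Itga5 had 0.18 with the replicate block and 0.050 without wildtype replicates 1 and 2 (-0.18 to 0.063 with 1 array out). Itgb1 1426918_at had -0.12 with the replicate block. The cause was not tested.

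Ligand genes at an unadjusted p of 0.05 were 1 higher and 2 lower. The higher count was 0 with a log2 6 filter, the sex or actin covariate or probe sets averaged per gene, 5 with the block, 4 without wildtype replicates 1 and 2, and 0 to 2 with 1 array out. The lower count was 1 with quantile normalization, no filter, a log2 6 filter, the floor, array weights, the block or the actin covariate, 0 without wildtype replicates 1 and 2, and 0 to 2 with 1 array out. Adhesion complex genes were 1 higher (2 without a filter or with the block, 0 with probe sets averaged, 1 with any array out) and 4 lower (2 with a log2 6 filter or probe sets averaged, 7 with the actin covariate, 0 with the block or without wildtype replicates 1 and 2, 1 to 5 with 1 array out). No list gene passed an adjusted p of 0.05 in any of these.

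The replicate numbers 3, 4 and 5 occur in both genotypes, but same-numbered arrays did not deviate together (correlations of -0.19, -0.34 and 0.16), so the block, a fit of 6 arrays, is given here only. Under quantile normalization the median log2 fold change of all probe sets was 0.01, against -0.04. The number of arrays and probe sets near the floor limit what could be seen.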

Other observations

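Enah was read on 4 probe sets over the filter that did not move alike. The brightest pair had log2 fold changes of -0.31 (SE 0.14) and -0.35 (SE 0.15), 1421624_a_at had -0.06 (SE 0.15) and 1431162_a_at had 0.47 (SE 0.18), with limma adjusted p of 0.332 to 0.908. On 1431162_a_at wildtype averaged 6.36 ± 0.42 (SD, n = 5) and null 6.83 ± 0.11 (SD, n = 5). The difference between these probe sets was not tested.

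Itga2b, the platelet integrin alpha subunit, read 2.26 to 2.28 on the 9 arrays other than null replicate 7.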
